A study of Mus musculus with 7 samples.

Results

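A set of mouse genes that are expressed from only one parental copy in at least some tissues were followed through single-cell RNA libraries of developing and adult brain: Peg3, Ndn, Meg3, Grb10, Impact, Nnat, Gnas, Plagl1, Mest and Igf2. They were taken by gene symbol, 10 of the 31053 genes in the count matrices, and all 10 were present. The adult group held 3 libraries from P60 mice: cortex, grey matter and white matter. The early postnatal group held 4 libraries: P2 cortex, P7 cortex, P7 SVZ (ventricular-subventricular zone) and P15 cortex. Cortex here was the tissue dorsal to the lateral ventricles, with the white matter and the ventricular-subventricular zone below it. Grey matter was the part above the cortical white matter, white matter was the corpus callosum with the adjoining ventricular-subventricular zone, and the P7 SVZ library came from the dorsal and lateral walls. Mice were CD1 in 6 libraries and C57BL/6 in the P7 SVZ library, and no transgene or treatment is given for any of them. Whether the libraries came from separate animals is not stated, so p-values measure the spread between these libraries, which may be partly technical. Libraries of a group also differ in age, strain or dissection, so that spread includes these differences, and no condition has a replicate.

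An imprinted gene carries a DNA methylation mark laid down in the egg or the sperm, and in many tissues the marked and unmarked copies are then read differently. Many such genes are active in the fetus and newborn and decline after birth, and several act on growth, either through insulin-like growth factor signalling or through the cell cycle. The brain expresses many of them, and it is one of the tissues in which some keep a high level in the adult. The counts used here do not tell the parental copies apart, so they give the level of each RNA and nothing on imprinting itself.

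The members lie in separate imprinted regions. On build mm10, Peg3 (chr7:6703892-6730431), Ndn (chr7:62346569-62350262) and Igf2 (chr7:142650766-142666816) share a chromosome but lie far apart, Nnat (chr2:157560078-157562522) lies inside an intron of Blcap, and Gnas (chr2:174284320-174346744) has several start sites. Mest is at chr6:30723547-30748465, Plagl1 at chr10:13060504-13131694, Grb10 at chr11:11930508-12038683 and Meg3 at chr12:109541001-109571726. Methylation marks of imprinted genes sit on CG dinucleotides, so the promoter windows of the 3 genes on which the comparisons turn most are shown with each CG in capitals. The windows run from 250 bases before to 50 after a RefSeq transcript start, 5′ to 3′ on the gene's strand, build GRCm38.p6. Ndn has 1 window at chr7:62348027-62348326 (plus strand), Plagl1 has 1 at chr10:13090582-13090881 (plus strand), and Grb10 has 2, at chr11:12037371-12037670 and chr11:12027922-12028221 (minus strand).
Ndn: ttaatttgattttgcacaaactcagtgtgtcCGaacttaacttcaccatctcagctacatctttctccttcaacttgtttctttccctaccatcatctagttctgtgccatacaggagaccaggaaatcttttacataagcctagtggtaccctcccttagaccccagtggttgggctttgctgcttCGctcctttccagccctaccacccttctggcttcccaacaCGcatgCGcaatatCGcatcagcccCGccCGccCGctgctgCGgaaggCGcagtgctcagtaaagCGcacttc
Plagl1: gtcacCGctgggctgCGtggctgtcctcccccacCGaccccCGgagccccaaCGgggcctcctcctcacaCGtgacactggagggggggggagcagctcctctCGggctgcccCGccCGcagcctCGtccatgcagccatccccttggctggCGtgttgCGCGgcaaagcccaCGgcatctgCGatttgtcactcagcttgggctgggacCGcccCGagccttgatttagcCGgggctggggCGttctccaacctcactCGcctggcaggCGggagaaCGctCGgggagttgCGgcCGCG
Grb10, first start: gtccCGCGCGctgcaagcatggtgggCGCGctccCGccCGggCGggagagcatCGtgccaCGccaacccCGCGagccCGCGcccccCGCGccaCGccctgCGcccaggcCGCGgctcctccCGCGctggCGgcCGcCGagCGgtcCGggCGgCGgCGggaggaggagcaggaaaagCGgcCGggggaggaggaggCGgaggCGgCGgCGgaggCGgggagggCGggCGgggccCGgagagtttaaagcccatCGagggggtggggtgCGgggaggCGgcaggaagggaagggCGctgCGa
Grb10, second start: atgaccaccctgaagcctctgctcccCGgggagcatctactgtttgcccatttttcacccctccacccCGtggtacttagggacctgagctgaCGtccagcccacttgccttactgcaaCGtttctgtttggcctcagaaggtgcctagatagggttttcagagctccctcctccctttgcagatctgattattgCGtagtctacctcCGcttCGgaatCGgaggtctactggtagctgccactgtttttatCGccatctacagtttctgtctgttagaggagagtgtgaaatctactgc
The first Grb10 window held 45 CG, more than 98.0% of 32544 RefSeq promoter windows of the same length, whose median was 7. The second held 9, more than 53.9% of those windows. Plagl1 held 26 CG, more than 83.0% of windows, and Ndn held 11, more than 58.3%. RefSeq windows were taken for 9 of the 10 members, 19 windows in all. Impact was left out of both the positions and the windows. Counts from the 3′ end of transcripts cannot assign a molecule to either Grb10 start.

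Of 25747 cell barcodes, 20697 were kept, 1857 to 4069 per library, with a median of 2791 to 9530.5 unique molecular identifiers (UMIs, each counting 1 captured RNA molecule) per kept cell. Clustering gave 47 clusters, which were named from marker genes as 17 classes, and 1844 cells (8.91%) stayed unnamed. Each class is called "-like" because it rests on RNA markers alone. Every class compared here had all its own markers detected in each library sum, for instance 14 of 14 for oligodendrocyte precursor cells (OPCs). The clusters were named by these same markers, so their detection is no separate check of the names. Levels are CPM, the UMIs of a gene scaled to a total of 1000000 UMIs of all genes, after summing the cells of a class within a library where there were at least 20 of them, which gave 61 sums. Free RNA in droplets can add UMIs to cells that do not make a gene. In P7 SVZ 2540 barcodes passed the mitochondrial limit and were left out, against 92 to 570 in each of the other 6 libraries, and 140 barcode sequences occurred among the kept cells of more than 1 library.

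The 10 members differed widely in how many molecules were counted. Meg3 gave 257399 UMIs in kept cells, Gnas 183531, Nnat 80621, Ndn 37590, Impact 7995, Peg3 7232, Mest 3371, Plagl1 2116, Grb10 1901 and Igf2 15. Levels are therefore compared between classes and ages within a gene, not between genes.

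Plagl1, a zinc finger transcription factor that restrains proliferation, marked radial precursor-like cells, the stem cells of the ventricular wall. In these its levels were 113, 82.8, 72.9 and 37.3 CPM in P2 cortex, P7 cortex, P7 SVZ and P15 cortex. OPC-like cells of all 7 libraries held between 2.47 and 4.97 CPM, with a median of 4.41. The single ependymal-like sum, from P7 cortex, held 75.8 CPM. No radial precursor-like sum came near an OPC-like one, and the difference was a log2 fold change of 4.31 ± 0.50 (SE; edgeR's quasi-likelihood test with library as a block, Benjamini-Hochberg adjusted p = 6.43e-10). Plagl1 was also higher in mature oligodendrocyte-like than in OPC-like cells (log2 fold change 2.47 ± 0.58, edgeR adjusted p = 3.65e-04) and in astrocyte-like cells (1.85 ± 0.52, adjusted p = 0.00257). It was lower in the committed precursor (COP)-like cells that lie between OPCs and oligodendrocytes, with 0 and 0 CPM at P60 and 0 to 2.996 in the 4 early libraries (log2 fold change -1.98 ± 0.73, edgeR adjusted p = 0.0264). A floor of 3 counts in the P60 COP-like sums is 10.8 and 6.82 CPM, above the OPC-like range, so their zeros show no difference. Along the oligodendrocyte classes Plagl1 was low in OPC-like cells and lower in COP-like cells of the early libraries. Mature oligodendrocyte-like cells held 28.2, 17.4 and 11.4 CPM at P60, against 1.69 at P15. The mature oligodendrocyte-like cells of P60 and of P15 lay in different clusters, which holds for their values of every member.

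Ndn encodes necdin, a MAGE family protein that represses growth and is lost in Prader-Willi syndrome. High levels were found in young neurons: interneuron-like cells held 685 CPM in P7 SVZ and 542 in P2 cortex, and striatal neuron-like cells held 502 and 427 in the same libraries. OPC-like levels lay between 53.4 and 264 CPM with a median of 165. The interneuron-like sums lay above every OPC-like sum (log2 fold change 1.39 ± 0.44, edgeR adjusted p = 0.0125). Low levels were found in microglia-like cells, 1.26 to 40.2 CPM in 7 libraries with a median of 4.49 (log2 fold change -3.92 ± 0.38 against OPC-like cells, edgeR adjusted p = 4.45e-13).

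Peg3, a zinc finger protein expressed from the paternal copy, was highest in excitatory neuron-like cells of P60 cortex (238 CPM) and P15 cortex (163 CPM) and reached 24.4 CPM in those of P2 cortex. In OPC-like cells it ran from 34.6 to 144 CPM, median 44.2, and the excitatory neuron-like P2 sum lay below all of these although the class differed upward (log2 fold change 1.12 ± 0.36, edgeR adjusted p = 0.00998). COP-like cells held between 0 and 25.1 CPM in 6 libraries, median 10.4, and all lay below the lowest OPC-like level (log2 fold change -2.09 ± 0.35, edgeR adjusted p = 3.68e-06). Microglia-like cells held 0 to 3.59 CPM.

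Grb10, an adaptor that binds the insulin and IGF1 receptors and dampens their signal, had its highest levels in mural-like cells (pericytes and smooth muscle of the vessel wall). It is read mainly from the maternal copy in most mouse tissues and from the paternal copy in neurons. Mural-like cells held 86.9 and 141 CPM at P60, against 90.2 and 62.4 in P7 SVZ and P15 cortex. Endothelial-like cells held 46.4, 17.0 and 22.8 CPM at P60 and 51.9 at P15. Excitatory neuron-like cells held 39.2 CPM at P60, 35.5 at P15 and 7.66 at P2, which overlapped with the endothelial-like range. OPC-like levels were 0 to 44.3 CPM, median 5.34. All mural-like sums exceeded all OPC-like ones, and the log2 fold change was 3.61 ± 0.67 (edgeR adjusted p = 2.47e-05), against 2.97 ± 0.77 for endothelial-like cells (adjusted p = 0.00148). In 3642 microglia-like cells there was no Grb10 UMI among 19024060. Within the early libraries, where microglia-like cells gave 0 among 6643216 UMIs and OPC-like cells 17.7 CPM, this is at least 39.2-fold lower with a floor of 3 counts over the class. At P60 no fold is given, because OPC-like cells held 1 UMI themselves. COP-like cells held 0 and 0 CPM at P60 and 0 to 8.99 in the early libraries, below OPC-like cells (log2 fold change -2.81 ± 0.71, edgeR adjusted p = 0.00125). At P60 both classes were near 0, so this difference comes from the early libraries.

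Gnas, which encodes the stimulatory G protein alpha subunit that couples receptors to cyclic AMP, had class means, among classes with at least 3 libraries, from 426 CPM in astrocyte-like cells (SD 244, n = 5) to 1825 CPM in endothelial-like cells (SD 425, n = 4), and the ranges of neighbours in this order overlapped throughout. Against OPC-like cells (1280.2 ± 425 CPM, SD, n = 7) the endothelial-like level was higher (log2 fold change 0.99 ± 0.21, edgeR adjusted p = 1.30e-04) and the astrocyte-like level lower (-1.25 ± 0.20, adjusted p = 9.50e-07). Counts on Gnas cover several transcripts that differ in parental origin, and Nespas, antisense to part of the locus, had 804 UMIs of its own.

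Meg3, a long noncoding RNA made from the maternal copy, was highest in neuron-like and neuroblast-like cells. Excitatory neuron-like cells held 7483 CPM at P60, against 3378 at P2 and 13202 at P15, and striatal neuron-like cells held 7764 at P2 and 6515 in P7 SVZ. OPC-like cells held 205 to 598 CPM, median 464, so the neuronal sums did not overlap with them (log2 fold changes 3.22 ± 0.72 and 3.35 ± 0.83, edgeR adjusted p = 2.51e-04 and 0.00124). Neuroblast-like cells held 1019.9 to 7804 CPM in 6 libraries, which overlapped with excitatory neuron-like cells and lay above all OPC-like sums (log2 fold change 3.10 ± 0.63, edgeR adjusted p = 9.63e-05). Mural-like cells held 561 and 442 CPM at P60, against 976 and 1530.0 CPM in P7 SVZ and P15 cortex, and did not pass the test against OPC-like cells (log2 fold change 0.62 ± 0.68, edgeR adjusted p = 0.575). Down the oligodendrocyte classes Meg3 was lower: COP-like cells held 54.1 to 144 CPM, median 77.2 (log2 fold change -2.40 ± 0.64, edgeR adjusted p = 0.00255). Mature oligodendrocyte-like cells held 17.5, 0 and 2.28 CPM at P60 and 58.6 at P15 (log2 fold change -4.24 ± 0.84, edgeR adjusted p = 3.38e-05).

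Nnat encodes neuronatin, a small membrane protein of the endoplasmic reticulum, and was high in neuroblast-like cells. These held 2625 and 2890.4 CPM in cortex and white matter at P60, against 1637, 2208, 694 and 1993 CPM in P2 cortex, P7 cortex, P7 SVZ and P15 cortex. With OPC-like levels of 579.6 to 1425 CPM (median 866), all neuroblast-like sums but that of P7 SVZ lay above the OPC-like range (log2 fold change 1.14 ± 0.45, edgeR adjusted p = 0.0462). The single ependymal-like sum, 48 cells of P7 cortex, held 2228 CPM. Low levels were found in mature oligodendrocyte-like cells, 2.25, 0 and 10.6 CPM at P60 and 8.64 at P15 (log2 fold change -6.14 ± 0.72, edgeR adjusted p = 4.99e-10). The neuroblast-like class of P7 SVZ was held mostly by another cluster than in the other libraries. Its sum carried 11974 CPM of G2M phase genes and 2351 CPM of radial precursor markers, against 1017 to 1294 and 330.5 to 745 CPM in the other 5 neuroblast-like sums. The part of this in the neuroblast-like values was not tested.

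Mest, an enzyme of the alpha/beta hydrolase family that is read from the paternal copy, was highest in radial precursor-like cells, at 113, 45.9, 37.8 and 37.3 CPM in P2 cortex, P7 cortex, P7 SVZ and P15 cortex, which overlapped with OPC-like levels. A step lay between COP-like and OPC-like cells. COP-like cells held 0 and 0 CPM at P60 and 5.99, 1.87, 1.42 and 2.26 CPM in P2 cortex, P7 cortex, P7 SVZ and P15 cortex. OPC-like cells held 17.2 to 49.7 CPM, median 37.0, with no overlap (log2 fold change -3.84 ± 0.61, edgeR adjusted p = 1.23e-06). Mature oligodendrocyte-like cells held 11.3, 24.3 and 11.6 CPM at P60 and 0.843 at P15, which did not pass the test against OPC-like cells (log2 fold change -1.13 ± 0.56, edgeR adjusted p = 0.104). Copg2 overlaps Mest on the opposite strand and had 3919 UMIs. Whether reads were counted by strand is not given in the sources used here.

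Impact, a protein that holds back the GCN2 kinase and so affects translation under amino acid shortage, was higher than in OPC-like cells in 6 classes and lower in none that passed the test. Its OPC-like levels were 26.2 to 72.8 CPM, with a median of 37.7. The test was passed by excitatory neuron-like (log2 fold change 1.53 ± 0.29, edgeR adjusted p = 1.87e-05), macrophage-like (1.35 ± 0.33, 7.39e-04), radial precursor-like (1.30 ± 0.27, 1.19e-04), microglia-like (1.29 ± 0.24, 6.29e-06), astrocyte-like (1.14 ± 0.26, 2.63e-04) and COP-like cells (0.67 ± 0.25, 0.0369). The astrocyte-like sums held 107, 118 and 127 CPM at P60 against 60.5 and 77.5 at P7 and P15, and microglia-like sums held 17.9 to 102 CPM, median 68.9, so the ranges overlapped with those of OPC-like cells.

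**Figure D1:**
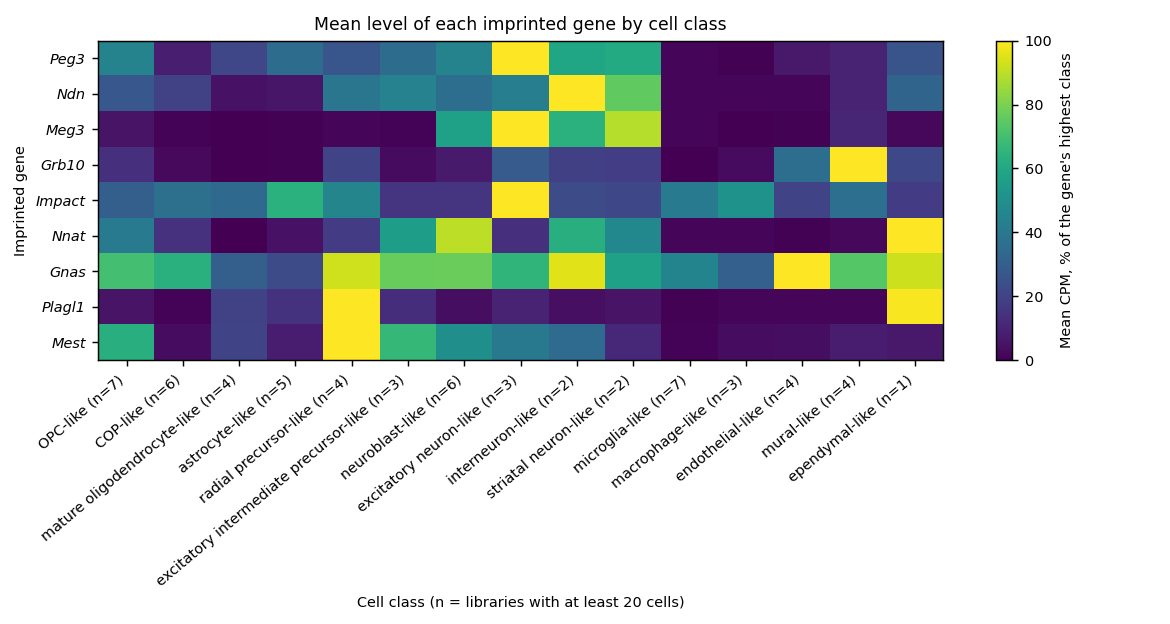
Heat map of the mean level of 9 members (rows; Igf2 is left out) in each cell class (columns, with the number of libraries), as a percentage of that gene's highest class mean. Plagl1 peaks in radial precursor-like, Grb10 in mural-like, and Meg3 in excitatory neuron-like cells, and the colours compare classes within a gene, not genes.

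**Figure D2:**
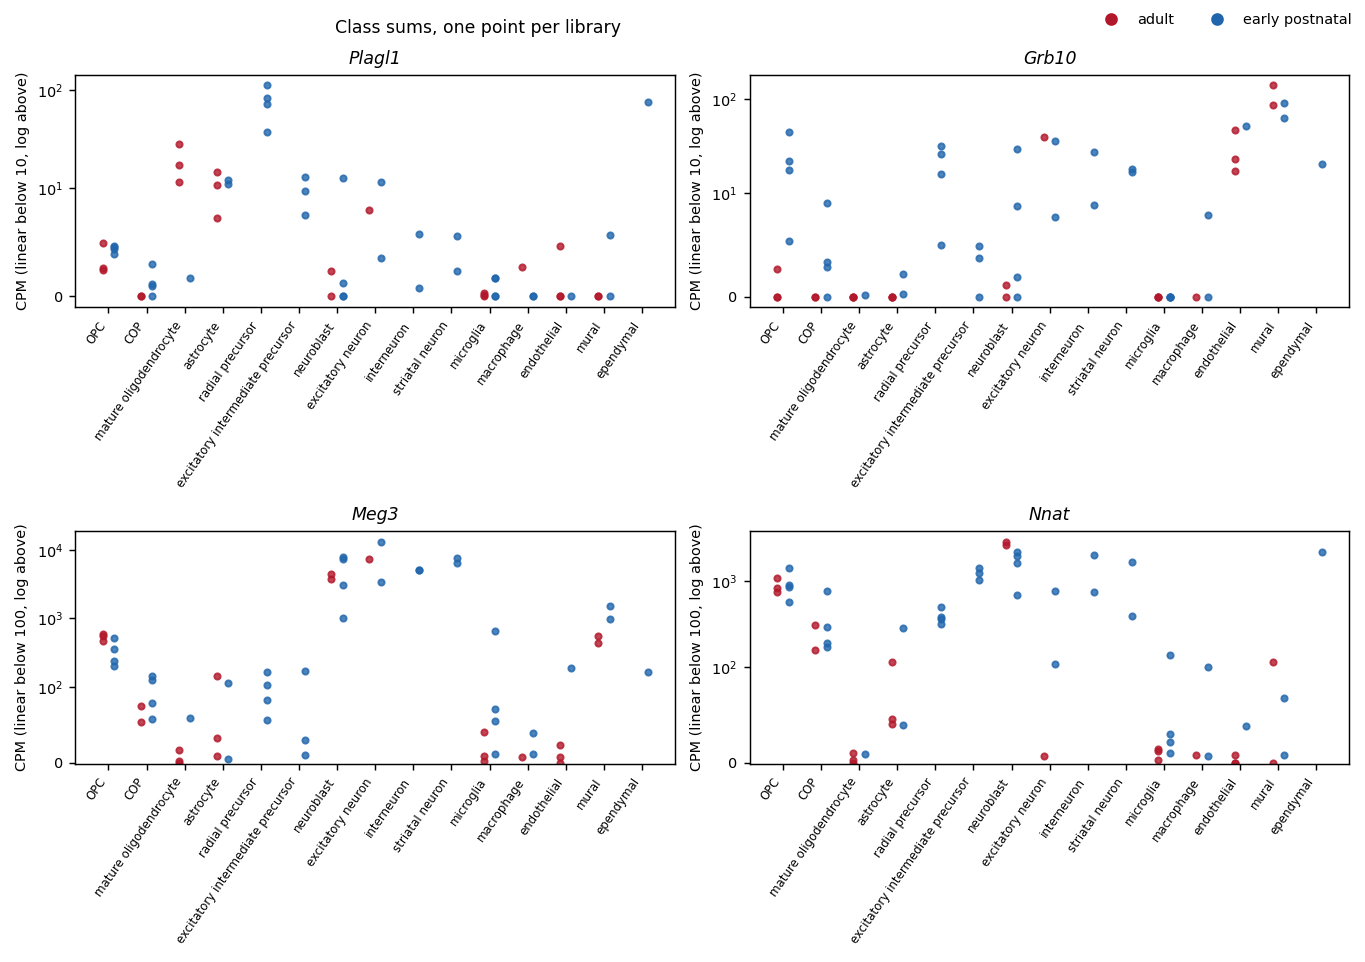
CPM of Plagl1, Grb10, Meg3 and Nnat in each class, 1 point per library sum, on an axis that is linear near 0 and logarithmic above. All 4 radial precursor-like points of Plagl1 (37.3 to 113 CPM) lie above the OPC-like points (2.47 to 4.97 CPM), and all Grb10 points of microglia-like cells are at 0.

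Counted over the 9 members that could be tested (Igf2 could not), differences from OPC-like cells were common in most classes, as they were over all 15140 genes. Called means an adjusted p under 0.05 in edgeR's quasi-likelihood test, and the percentage after each count is the share of all tested genes called. Microglia-like cells had 1 member higher and 7 lower (56.3% of genes), and macrophage-like cells 1 higher and 6 lower (35.9%). In astrocyte-like cells 2 were higher and 6 lower (43.1%), and in endothelial-like cells 2 were higher and 5 lower (33.8%). Mural-like cells had 2 higher and 2 lower (26.6%). The medians of the members' log2 fold changes were -3.92, -3.93, -1.77, -2.73 and -1.14 in these 5 classes, where the medians over all tested genes were -0.01, -0.31, -0.01, -0.38 and -0.30.

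Within the oligodendrocyte classes, COP-like cells had 1 member higher and 6 lower (31.3% of all genes called), with a median log2 fold change of -1.98 over members and -0.08 over all genes. Mature oligodendrocyte-like cells had 1 higher and 4 lower (42.4%), median -1.13 against -0.07 over all genes. Among precursors and neurons the counts were smaller or upward. Radial precursor-like cells had 2 higher and 2 lower (30.2%), excitatory intermediate precursor-like cells 0 higher and 2 lower (20.1%), and neuroblast-like cells 2 higher and 0 lower (32.9%). Excitatory neuron-like cells had 4 higher and 1 lower (42.7%), interneuron-like cells 2 higher and 0 lower (28.2%), and striatal neuron-like cells 1 higher and 1 lower (31.0%), the last 2 from only 2 libraries each. The neuron-like counts depended on single libraries: without P7 SVZ no member was called in interneuron-like or striatal neuron-like cells, and without P60 cortex 3 were called in excitatory neuron-like cells and 3 in mature oligodendrocyte-like cells.

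In OPC-like cells, the stage difference took opposite directions in different members. Ndn and Grb10 were lower at P60 and Impact was higher, while the other 5 members tested did not pass. Of the 8 members tested, 3 were called, against 6.47% of all 9731 genes in the same comparison (286 higher and 344 lower at P60). The median log2 fold change, adult over early postnatal, was -0.50 over the 8 members and 0.01 over all genes.

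Ndn held 98.8, 131 and 53.4 CPM in OPC-like cells of P60 cortex, grey matter and white matter, against 264, 254, 197 and 165 CPM in P2 cortex, P7 cortex, P7 SVZ and P15 cortex. All 3 adult values lay below the 4 early ones. The means were 94.3 ± 38.9 CPM (SD, n = 3) in adult and 220.3 ± 47.0 CPM (SD, n = 4) in early postnatal OPC-like cells, a log2 fold change of -1.40 ± 0.31 (edgeR adjusted p = 0.0213).

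Grb10 held 0, 0 and 2.67 CPM in the adult OPC-like sums, against 44.3, 22.1, 17.6 and 5.34 CPM in the early ones, again without overlap. In counts this was 1 UMI among 1383842 in adult and 194 UMIs among 10949888 in early postnatal OPC-like cells, a ratio of 0.0408 with a 95% counting interval of 0.00103 to 0.230. The fitted log2 fold change was -4.93 ± 1.30 (edgeR adjusted p = 0.0355), a value that depends on the prior count because 2 of the 3 adult sums were at 0.

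Impact held 61.7, 72.8 and 69.4 CPM at P60, against 32.5, 26.3, 26.2 and 37.7 CPM in the early OPC-like sums. Every adult value exceeded every early one, with means of 68.0 ± 5.68 CPM (SD, n = 3) in adult and 30.7 ± 5.54 CPM (SD, n = 4) in early postnatal cells (log2 fold change 0.97 ± 0.25, edgeR adjusted p = 0.0343).

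These calls rested on few libraries. Leaving out any 1 of the 3 adult libraries, or P2 cortex, left no member called in OPC-like cells, and leaving out P7 cortex left only Ndn. Without P7 SVZ 2 were called, and without P15 cortex 4. The counts of all genes called in these omissions are not given here. The log2 fold change stayed between -1.75 and -1.14 for Ndn and between 0.90 and 1.04 for Impact over the 7 omissions. Cycling cells also differed between the stages: they made up 8.79, 7.69 and 11.4% of OPC-like cells at P60, against 23.0, 31.1, 36.0 and 21.1% in P2 cortex, P7 cortex, P7 SVZ and P15 cortex. When the cells that did not cycle were compared alone, only Ndn was called (log2 fold change -1.45, edgeR adjusted p = 0.0292), and Impact kept its direction at 0.87 (adjusted p = 0.132). Over all genes 225 were called in those cells. Grb10 was not among the members tested there, so its call was not checked in those cells.

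Gnas was the next closest. Its OPC-like levels were 961, 1113 and 739 CPM at P60, against 1891, 1811, 1226 and 1222 CPM in the early sums, with no overlap, but the test was not passed (log2 fold change -0.92 ± 0.28, edgeR adjusted p = 0.0694). DESeq2 called it (adjusted p = 0.0125). Meg3 held 598, 464 and 552 CPM at P60 against 357, 238, 205 and 519 CPM, which overlapped (log2 fold change 0.52 ± 0.28, edgeR adjusted p = 0.292). Nnat, Peg3 and Mest overlapped as well, with log2 fold changes of -0.29 ± 0.31, -0.70 ± 0.47 and 0.11 ± 0.36 (edgeR adjusted p = 0.6245, 0.413 and 0.901). Plagl1 was too low to be tested, at 2.47, 4.97 and 2.67 CPM at P60 and 3.94, 4.59, 4.41 and 4.67 CPM in the early OPC-like sums.

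Other signals moved with stage in the same sums. Xist ran from 3028 to 4436 CPM in adult and 326 to 1442 CPM in early postnatal OPC-like sums, and the summed level of 4 Y-linked genes was 0 in adult and 119 to 157 CPM in early ones, so the sex of the animals and the stage cannot be told apart. Of 12 microglia markers, 8 to 12 were detected in adult OPC-like sums, at a summed 160.1 to 1765 CPM, and 2 to 12 in early ones, at 11.8 to 142 CPM. Of 12 mature oligodendrocyte markers, 8 to 12 were detected in adult sums (259 to 558 CPM) and 5 to 12 in early ones (46.3 to 657 CPM). The part of these in the stage differences was not tested. In sums of cells, fewer molecules per cell and fewer cells that make a gene cannot be told apart.

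**Figure D3:**
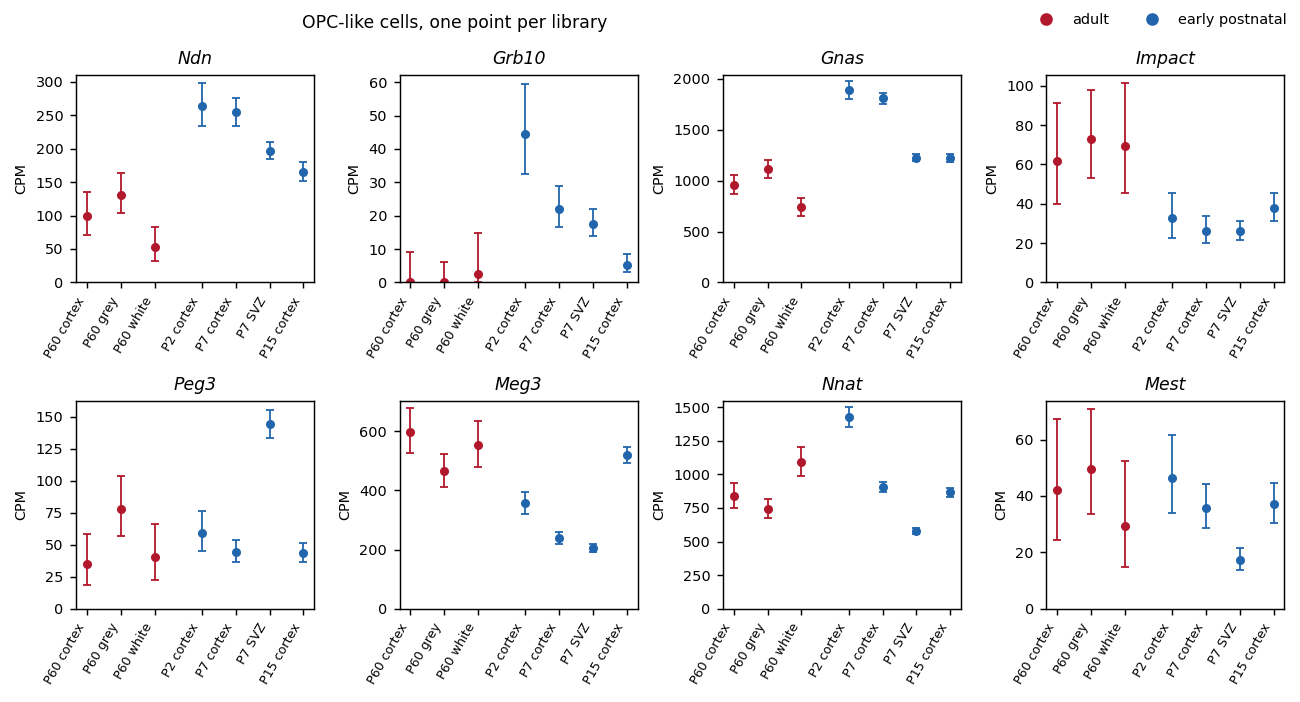
CPM of 8 members in OPC-like cells of each library, adult libraries left and early postnatal libraries right, with exact Poisson 95% intervals that cover counting error only. Adult points lie below all early points for Ndn (53.4 to 131 against 165 to 264 CPM), Grb10 and Gnas, and above them for Impact (61.7 to 72.8 against 26.2 to 37.7 CPM). The adult intervals of Grb10 include the P15 cortex value of 5.34 CPM.

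Within cortex alone, where each age was 1 library and no test was possible, the OPC-like level of Ndn was 264 CPM at P2 (95% counting interval 233 to 298), 254 at P7 (235 to 275), 165 at P15 (151 to 181) and 98.8 at P60 (70.6 to 135). Grb10 held 44.3 CPM (32.4 to 59.3) at P2, 22.1 (16.6 to 28.9) at P7, 5.34 (3.05 to 8.67) at P15 and 0 (0 to 9.11) at P60. Impact held 32.5 CPM (22.4 to 45.7) at P2, 26.3 (20.2 to 33.6) at P7, 37.7 (31.1 to 45.3) at P15 and 61.7 (39.95 to 91.1) at P60. The counting intervals of Ndn at P7, P15 and P60 did not overlap, those of Grb10 at P2, P7 and P15 did not overlap either, and those of Impact at P15 and P60 overlapped.

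Outside OPC-like cells no member was called between the stages in any of the 5 other classes with at least 2 libraries a side, nor in the sums of all kept cells. Few genes of any kind were: 0.0324% of genes in COP-like, 0.124% in astrocyte-like, 0.0314% in microglia-like and 0.0319% in all kept cells, and 0.0% in neuroblast-like and 0.0% in mural-like cells, where edgeR gave an unadjusted p under 0.05 for 378 and 242 genes. Members with an unadjusted p under 0.05 in edgeR were 3 of 6 tested in COP-like, 4 of 7 in astrocyte-like, 0 of 7 in neuroblast-like, 3 of 5 in microglia-like, 3 of 6 in mural-like and 4 of 9 in all kept cells. Over all genes, in the same order, these were 1048 of 9272, 1788 of 11311, 378 of 7985, 1254 of 9560, 242 of 2778 and 2918 of 15670. DESeq2 called Ndn in COP-like cells, microglia-like cells and all kept cells, and no member in the other 3.

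Ndn had negative stage log2 fold changes in 5 of the 6 classes tested, from -2.82 ± 0.79 in microglia-like to -1.40 ± 0.31 in OPC-like cells, and 0.07 ± 0.31 in neuroblast-like cells. COP-like cells held 39.7 and 50.04 CPM at P60 against 189, 175, 173 and 102 CPM early, without overlap (log2 fold change -1.91 ± 0.36, edgeR adjusted p = 0.211). Most COP-like cells of P60 cortex (64.3%) lay in another cluster than most of those of P60 white matter and of P2, P7 and P15 cortex. Those of P7 SVZ lay mostly (53.6%) in yet another cluster. COP-like stage values therefore compare clusters as well as ages. Mural-like cells held 26.7 and 12.3 CPM at P60 against 90.2 and 109 early. Neuroblast-like cells, which at P60 still migrate from the ventricular wall, held 232 and 229 CPM at P60 against 243, 264, 142 and 214 CPM early.

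Impact was positive in all 6 classes, from 0.71 ± 0.29 in astrocyte-like to 1.83 ± 0.56 in mural-like cells. In mural-like cells it was 86.9 and 92.1 CPM at P60 against 22.6 and 23.4 CPM early (log2 fold change 1.83, edgeR adjusted p = 0.480). Gnas was negative in all 6, from -1.10 ± 0.39 in astrocyte-like to -0.13 ± 0.27 in neuroblast-like cells. Microglia-like cells of the adult and early libraries lay mostly in different clusters, as did those of P15 cortex and the other early libraries, so their stage values compare clusters as well as ages. The 6 classes share libraries, so they are not independent of one another, and of these values only those of Ndn and Impact in OPC-like cells were called.

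Stage results in astrocyte-like cells also depended on which libraries entered. Peg3 there held 65.8, 89.6 and 47.1 CPM at P60 against 15.4 and 33.6 CPM at P7 and P15 (log2 fold change 1.45 ± 0.41, edgeR adjusted p = 0.157), without overlap. Without P15 cortex 6 members were called in astrocyte-like cells, and with low genes kept 5 were. The counts of all genes called under these settings are not given here, so these counts show nothing particular to the members. Different clusters held most of the class at P60, P7 and P15, so its stage values compare clusters as well as ages.

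**Figure D4:**
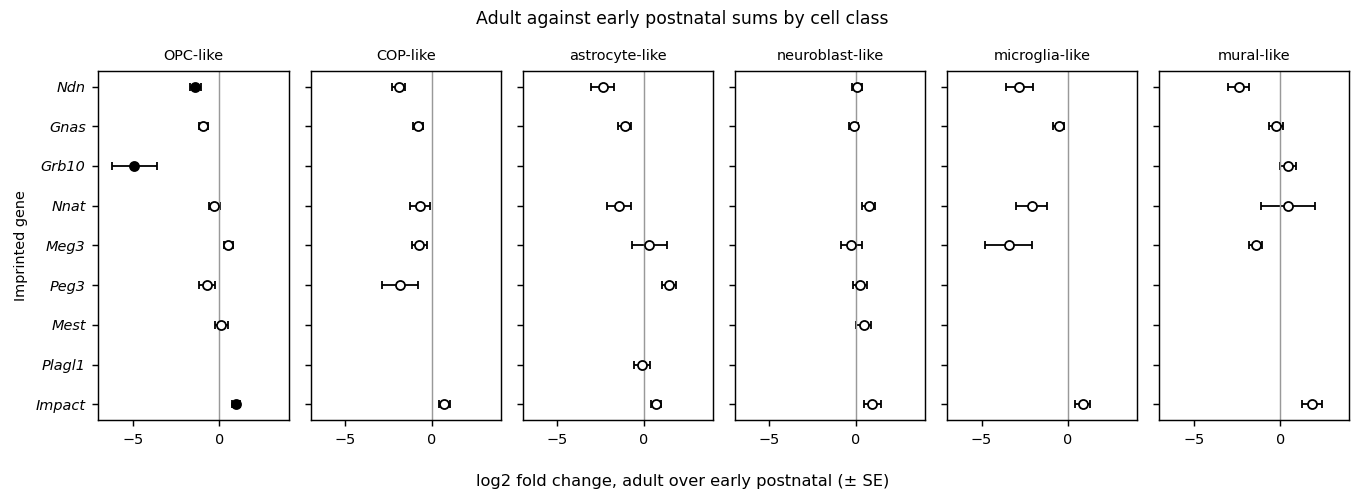
Log2 fold change of each member, adult over early postnatal, with its standard error, in 6 cell classes; filled points passed an edgeR adjusted p of 0.05. Filled points occur for Ndn, Grb10 and Impact in OPC-like cells, and Impact is above 0 in all 6 classes.

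Whether the stage difference itself differed from that in OPC-like cells was tested for 3 classes. No member was called for astrocyte-like cells (0 of 9, against 1.23% of all genes) or microglia-like cells (0 of 8, against 0.0249%). In both, edgeR gave 2 members an unadjusted p under 0.05, DESeq2 called 0, and with low genes kept 2 were called. For endothelial-like cells 1 of 8 was called (0.434% of all genes): Meg3. Endothelial-like cells held 23.2, 0 and 7.61 CPM of Meg3 at P60 and 186 CPM in P15 cortex. P15 cortex was the only early library with at least 20 cells named endothelial-like. An unnamed cluster of 125 cells also had 12 endothelial markers raised, with 81 cells from P7 cortex and 30 from P15 cortex. That cluster is not in these sums. In OPC-like cells Meg3 was 464 to 598 CPM at P60 and 205 to 519 CPM early. The difference of the log2 fold changes was -4.08 ± 0.69 (edgeR adjusted p = 6.37e-06), and DESeq2 did not call it (adjusted p = 0.0918). The early endothelial-like side is 34 cells of 1 library, which the fit assumes to vary like the other sums, so the call has no replicate check on that side. In the P15 endothelial-like sum 11 of 13 neuroblast markers were detected, at a summed 182 CPM, against 1 or 2 at 30.4 to 85.2 CPM in the adult sums, and their part in the difference was not tested.

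Among OPC-like cells of the early libraries, cycling cells were compared with cells that did not cycle. Meg3 was the only member called of 8 tested, where 20.2% of all 8578 genes were called, 990 higher and 742 lower in cycling cells. Cycling cells held 363, 129, 183 and 218 CPM of Meg3 in P2 cortex, P7 cortex, P7 SVZ and P15 cortex, against 357, 303, 223 and 675 CPM in cells that did not cycle. The 3 libraries other than P2 cortex were lower in cycling cells (log2 fold change -0.82 ± 0.13, edgeR adjusted p = 4.99e-06 with library as a block). Without the library block no member was called. The other 7 members had log2 fold changes between -0.36 and -0.04, among them Ndn at -0.04 ± 0.10 and Grb10 at -0.08 ± 0.26.

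The P7 SVZ library could be set against P7 cortex in 6 classes, as a description only, since each side is 1 library and the difference of dissection comes with a difference of strain. Peg3 was higher in P7 SVZ in all 5 classes with enough UMIs, each with a counting interval above 1. Most OPC-like, COP-like, radial precursor-like and neuroblast-like cells of P7 SVZ lay in other clusters than those of P7 cortex, so these ratios compare clusters as well. Excitatory intermediate precursor-like cells lay in 1 cluster in both libraries and held 82.4 against 28.9 CPM, a ratio of 2.85 (95% counting interval 1.29 to 5.82). In OPC-like cells Peg3 held 144 CPM in P7 SVZ against 44.2 CPM in P7 cortex, a ratio of 3.26 (95% counting interval 2.65 to 4.04). In radial precursor-like cells it held 64.4 against 36.0 CPM, a ratio of 1.79 (1.51 to 2.13). Outside P7, interneuron-like cells held 134 CPM of Peg3 in P7 SVZ and 32.3 in P2 cortex, and striatal neuron-like cells 135 and 38.8.

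Gnas ran the other way in all 6 classes, with ratios of P7 SVZ to P7 cortex between 0.608 and 0.763 and every interval below 1. Ndn was below 1 in 3 of 6 classes, among them OPC-like cells at 197 against 254 CPM (0.775, 0.699 to 0.861), and above 1 in microglia-like cells at 20.2 against 6.67 CPM (3.03, 1.60 to 5.78). Meg3 had no common direction: its interval lay above 1 in 3 of 5 classes, up to a ratio of 4.82 in microglia-like cells (54.6 against 11.3 CPM), and below 1 in 2. The lowest ratios of Nnat and Meg3 were those of neuroblast-like cells, at 694 against 2208 CPM (0.314, 0.300 to 0.330) and 1019.9 against 3120.2 CPM (0.327, 0.314 to 0.340). In the same cells Plagl1 was 12.8 CPM in P7 SVZ against 1.25 in P7 cortex and Grb10 29.5 against 8.76, where the G2M phase and radial precursor genes given above also differ. No interval for Impact left 1 on either side in any of 6 classes, with ratios from 0.816 to 1.60. Strain and dissection cannot be told apart in any of these ratios.

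**Figure D5:**
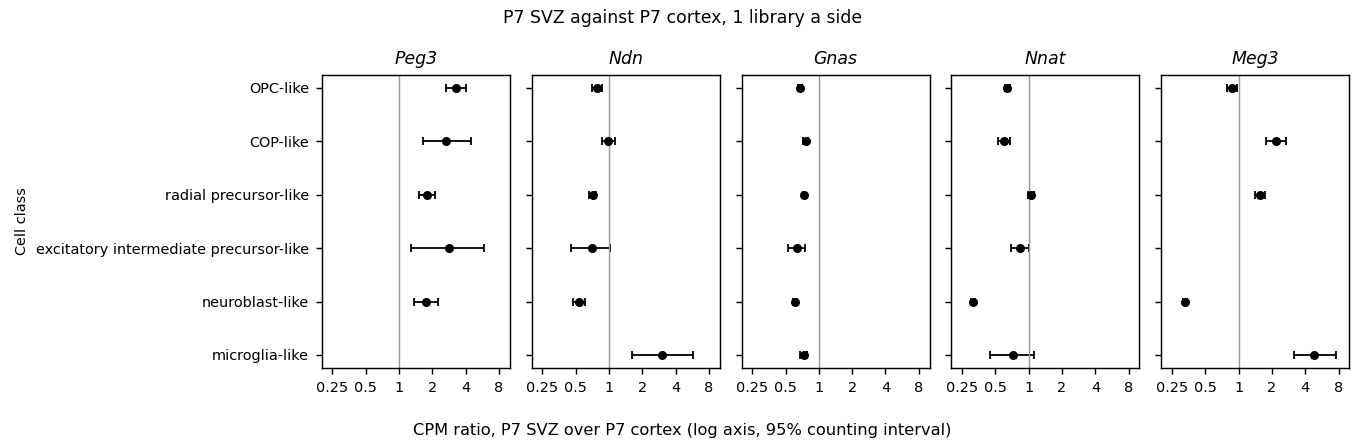
Ratio of CPM in P7 SVZ to P7 cortex for Peg3, Ndn, Gnas, Nnat and Meg3 in each class, on a log axis, with 95% intervals that cover counting error only. All Peg3 points lie above 1 (1.75 to 3.26) and all Gnas points below 1 (0.608 to 0.763).

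At P60, white matter and grey matter could be set side by side in the same way. Gnas was lower in white matter in 4 of 5 classes, for instance 739 against 1113 CPM in OPC-like cells (0.664, 0.575 to 0.765). Ndn was lower in both classes with enough UMIs, OPC-like cells at 53.4 against 131 CPM (0.408, 0.236 to 0.673) and mature oligodendrocyte-like cells at 11.0 against 27.8 CPM (0.396, 0.187 to 0.963). Nnat was higher in white matter in 3 of 4 classes, with 1094 against 745 CPM in OPC-like cells (1.47, 1.28 to 1.68).

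Igf2, the fetal growth factor that binds the IGF1 receptor, was barely detected. Its 15 UMIs came from 11 cells, all in the early postnatal libraries: 9 UMIs in 33 meningeal fibroblast-like cells (26.6 CPM, 95% counting interval 12.2 to 50.4), 4 in mural-like, 1 in COP-like and 1 in radial precursor-like cells. Only 1, 0 and 1 fibroblast-like cells came from P60 cortex, grey matter and white matter, so their Igf2 level at P60 could not be judged. OPC-like cells gave 0 among 12333730 UMIs, which allows up to 0.299 CPM. H19, the noncoding neighbour of Igf2 that is read from the other parental copy, gave 378 UMIs, 150 of them in radial precursor-like and 24 in OPC-like cells. All 24 were in the early libraries, whose OPC-like sums held 10949888 UMIs of all genes, against 1383842 at P60. The antisense Igf2os gave 3 UMIs.

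Beyond the members, 63 other imprinted genes and 24 genes that maintain imprints were listed. In OPC-like cells, where 6.47% of all genes were called between the stages, 1 of 30 tested imprinted genes was called, higher at P60: Cobl, an actin nucleator, at 61.7, 69.5 and 90.7 CPM against 16.8, 14.6, 30.4 and 36.4 CPM (log2 fold change 1.37 ± 0.32, edgeR adjusted p = 0.0265). Of 21 maintenance genes 2 were called, both lower at P60. Mbd3, a subunit of the NuRD complex, held 109, 82.8 and 120.04 CPM against 193, 212, 164 and 156 CPM (log2 fold change -1.02 ± 0.24, edgeR adjusted p = 0.0254). Uhrf1, which brings the maintenance methyltransferase to replicating DNA, held 17.3, 3.31 and 8.003 CPM against 26.6, 31.3, 31.9 and 22.0 CPM (log2 fold change -1.85 ± 0.47, edgeR adjusted p = 0.0349). In the same sums 15 of 37 S phase genes and 25 of 50 G2M phase genes were lower at P60 and none was higher, with median log2 fold changes of -1.30 and -2.05, and their part in the maintenance genes' values was not tested. Of 18 tested genes of the IGF and insulin axis 0 were called by edgeR, with 5 at an unadjusted p under 0.05. Over all genes 2156 of 9731 had such an unadjusted p. The median log2 fold changes of the 3 lists were 0.00, -0.56 and 0.12, beside 0.01 over all genes.

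In cycling against non-cycling OPC-like cells, where 20.2% of all genes were called, 2 of 25 other imprinted genes were higher and 6 lower, among the lower ones Cdkn1c, an inhibitor of cyclin-dependent kinases (log2 fold change -0.89 ± 0.24, edgeR adjusted p = 0.00488). Of 18 maintenance genes 5 were higher and 1 lower. The maintenance methyltransferase Dnmt1 had a log2 fold change of 2.004 ± 0.15 (edgeR adjusted p = 2.14e-15) and Smchd1, a chromatin protein of the inactive X and of imprinted clusters, 1.05 ± 0.13 (adjusted p = 5.42e-09). Of 15 IGF and insulin axis genes 1 was higher and 2 lower. In COP-like against OPC-like cells 4 of 50 other imprinted genes were higher and 12 lower, beside the 31.3% of all genes called there.

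Across the 61 class sums, the genes with the most similar profile were found by Pearson's r of log2(CPM + 10) among 7415 genes, as a description with no test, since sums from 1 library share its depth and its free RNA. For Ndn these were Pebp1 (r = 0.90), Bex1 (0.90) and Bex2 (0.89), for Nnat Hmgb3 (0.92), Bex4 (0.92) and Fxyd6 (0.92), and for Meg3 Sept6 (0.87), Runx1t1 (0.85) and Cacnb3 (0.85). Peg3 was nearest to Tcaf1 (0.84), Soga3 (0.82) and Gnl3l (0.81), Gnas to Ctnnb1 (0.78), Txn1 (0.73) and Tceal9 (0.73), and Impact to Usp2 (0.66), Zfc3h1 (0.66) and Map2k1 (0.64). Among the members themselves the closest pair was Ndn and Nnat (r = 0.81), and Impact had negative values with Gnas (-0.57), Nnat (-0.44) and Ndn (-0.42).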

How the data were processed

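Each of the 7 libraries was made with 10x 3′ chemistry, and the authors deposited 1 matrix of raw UMI counts per library, counted with Cell Ranger 3 on build mm10 per the submitters' processing notes (3.0.2 per the file headers). For the gene annotation and the strand setting, the choice was not given in the sources used here. Total counts were 10074763 to 45668007 UMIs per library. Barcodes with under 500 genes (1304) or over 10% mitochondrial UMIs (4391) and doublets called by scrublet (305) were left out. These sets can overlap. Cells were clustered with scanpy 1.11.5 (2000 variable genes less the imprinted ones, 30 components, 15 neighbours, resolution 1.5, seed 1). A cluster was named where at least 3 markers, and at least 50% of a class's markers, were raised 2-fold. The 50% limit was chosen after seeing the data.

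Counts were summed per class and library (at least 20 cells) and tested with edgeR 4.0.16 (TMM scaling, filterByExpr, quasi-likelihood F test, Benjamini-Hochberg adjustment over all tested genes, threshold 0.05). DESeq2 1.42.0 was an alternative, beside no filter, a 5% mitochondrial limit, age as log2 of days, non-cycling cells alone, clustering at resolution 1.0 and leaving out each library. Cells were thinned to 2000 UMIs to call cycling. At least 8 against at most 3 cell cycle UMIs were used, chosen after seeing the data because the planned 3 against 0 left 1 library. Class comparisons and cycling had library as a block. The scripts were tested on simulated data. Intervals are exact Poisson, or conditional for ratios, at 95%, and cover counting error only.

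All 10 members were described in every comparison, listed genes were counted and named by up to 8 of the largest called changes, and the 3 most similar genes were taken by correlation. A few list genes were left unnamed. Members and lists were chosen with earlier results of these data known.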

Additional observations from a re-analysis of the deposited data

Results flagged for a closer look

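In 48 groups of 4 early postnatal libraries with at least 20 UMIs of the member, the highest or lowest library was tested for its distance from the other 3, and 6 stood apart. The limit used is passed by about 1 in 20 groups when the values are independent draws from 1 normal distribution. These groups share libraries and cells, and their libraries differ in age, strain and dissection. The 6 are therefore not set against that rate. Peg3 in OPC-like cells was 144 CPM in P7 SVZ and 43.4 to 59.1 CPM in the other 3 libraries, and in all kept cells it was 100.4 CPM in P7 SVZ and 24.3 to 33.1 CPM elsewhere. Without P7 SVZ the stage log2 fold change of Peg3 in OPC-like cells was -0.05, beside -0.70 with it. Plagl1 in neuroblast-like cells was 12.8 CPM in P7 SVZ and 0 to 1.25 CPM in the other 3 libraries.

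The other 3 came from P2 cortex. Meg3 in microglia-like cells was 656 CPM there and 11.3 to 70.9 CPM in the other 3 early libraries, and Nnat in the same cells was 138 CPM and 9.87 to 30.3 CPM. That sum held 25 cells, with 5 of 13 neuroblast markers detected at a summed 214 CPM and 8 of 14 excitatory neuron markers at 1027 CPM, and their part in the Meg3 and Nnat values was not tested. Mest in radial precursor-like cells was 113 CPM in P2 cortex and 37.3 to 45.9 CPM in the other 3 libraries. The stage effect on Meg3 differed between endothelial-like and OPC-like cells by -4.08 on the log2 scale in edgeR's interaction test, which rests on 1 early endothelial-like library assumed to vary like the other sums, and DESeq2 did not call it (adjusted p = 0.0918).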

How the results depend on the processing

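The stage comparisons could not be paired, because each library came from 1 age and the labels give no replicate numbers. Class comparisons, differences in stage effect and cycling had library as a block. Of 567 alternatives of class differences called against OPC-like cells, 521 stayed called in the same direction, 46 were no longer called and 0 reversed. Counts of members called between the stages moved as follows. Counts of all genes called are not set beside the member counts in this paragraph, which therefore show nothing particular to the members. In OPC-like cells 3 became 1 with a 5% mitochondrial limit and 1 in non-cycling cells, where Grb10 was not tested, and 0 to 4 with a library left out. In COP-like cells DESeq2, no filter and log2 age each gave 1, and omissions 0 to 1. In astrocyte-like cells no filter gave 5, log2 age 3 and omissions 0 to 6. In microglia-like cells DESeq2 gave 1, log2 age 2 and omissions 0 to 1, in mural-like cells omissions gave 0 to 2, and in all kept cells DESeq2 gave 1. Against OPC-like cells, DESeq2 gave 1 in each of excitatory intermediate precursor-like, interneuron-like and neuroblast-like cells. Omissions gave 1 to 2, 0 to 2 and 1 to 3 in these, 0 to 3 in striatal neuron-like, 2 to 4 in radial precursor-like, 3 to 5 in excitatory neuron-like and 3 to 6 in mature oligodendrocyte-like cells. For the differences in stage effect, no filter gave 2 in astrocyte-like and 2 in microglia-like cells, DESeq2 0 in endothelial-like cells, and omissions 0 to 5 in astrocyte-like and 1 to 2 in endothelial-like cells. For cycling, no library block gave 0 and omissions 1 to 3. The causes were not tested.

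Reversals all concerned values that were not called. In stage comparisons, Mest in OPC-like cells was -0.0304 with a 5% mitochondrial limit and -0.0275 with log2 age, Plagl1 in astrocyte-like cells 0.0676 with the 5% limit and Ndn in neuroblast-like cells -0.0055 with log2 age. With DESeq2 the difference in the stage effect on Impact was -0.0638 for microglia-like and -0.0711 for endothelial-like cells. With a library left out, stage log2 fold changes ran from -0.47 to 0.0174 for Nnat and -0.11 to 0.30 for Mest in OPC-like cells. In astrocyte-like cells they ran from -2.31 to 0.58 for Nnat, -1.59 to 4.07 for Meg3 and -0.27 to 0.0352 for Plagl1. In neuroblast-like cells Meg3 ran from -0.59 to 0.0894 and Ndn from -0.0893 to 0.20, in mural-like cells Nnat from -0.18 to 2.75 and Gnas from -0.67 to 0.17, and in all kept cells Peg3 from -0.87 to 0.35. Differences in stage effect ran from -2.11 to 0.53 (Nnat), -1.06 to 2.81 (Meg3) and -1.05 to 3.17 (Grb10) for astrocyte-like cells, and from -0.23 to 0.33 (Impact) and -1.85 to 3.49 (Mest) for microglia-like cells. For endothelial-like cells they ran from -0.30 to 0.32 (Impact), -0.99 to 0.97 (Peg3) and -0.73 to 0.0633 (Ndn). For cycling they ran from -0.35 to 0.12 (Mest), -0.13 to 0.0479 (Ndn) and -0.21 to 0.10 (Grb10). Depth limits Grb10, Plagl1 and Igf2 most, with 1901, 2116 and 15 UMIs in kept cells.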
